A study of Rattus norvegicus with 9 samples.

Results

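The genes described here are the FGF receptors Fgfr1, Fgfr2, Fgfr3 and Fgfr4, the feedback inhibitors Spry1, Spry2, Spry4, Dusp5 and Dusp6, and the transcription factor gene Mycn. They were taken by gene symbol, with every probe set that the platform's probe table gives to a listed symbol. Of the 10 genes, 9 had such a probe set and Spry4 was not analysed here. The 9 genes had 16 of the 15866 probe sets that are not controls. A signal filter, which required 3 or more of the 9 arrays to exceed their own 40th percentile of signal, kept 10 of these 16, for 7 genes, and 10106 probe sets in all. Fgfr3 and Fgfr4 were among the 6 member probe sets that did not pass.

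Fibroblast growth factors bind receptor tyrosine kinases of the Fgfr family with heparan sulfate, and the receptors start the Ras, Raf, MEK and ERK kinase cascade. ERK in turn induces genes that restrain the cascade, among them the Sprouty proteins, which act between receptor and Raf, and the dual-specificity phosphatases Dusp5 and Dusp6, which remove the activating phosphates of ERK. In the ureteric bud, the epithelial outgrowth that branches into the collecting ducts of the kidney, Fgfr2 is needed for normal growth and branching in mice, and mouse Spry1 restrains the response to GDNF, the ligand of the receptor tyrosine kinase Ret.

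Ureteric buds of Sprague-Dawley rat embryos at embryonic day 13 were separated from the mesenchyme around them and cultured for 4 days in gel made from growth factor reduced Matrigel (50%) and collagen of type 1 (50%). Every culture received FGF1 at 250 ng/ml and GDNF at 125 ng/ml. The HRG group also received recombinant human heregulin alpha, a ligand of ErbB receptor tyrosine kinases, at 500 ng/ml. The PTN group received pleiotrophin, a heparin-binding growth factor, at about 3 µg/ml, purified from the medium of the next group. The BSN group received the conditioned medium of a cell line from metanephric mesenchyme. RNA from pools of 3 buds was amplified by repeated in vitro transcription, and 3 arrays per group, which the series design calls biological replicates, made 9 in all. The title of the series counts BSN and PTN as branching and HRG as non-branching, whereas the descriptions of the PTN samples call them non-branching, so the groups are named by medium alone. No group received FGF1 and GDNF alone, so a higher level in one medium cannot be told apart from a lower level in the medium it is set against. The 3 comparisons share arrays with each other, and they are given side by side.

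Of the bud epithelium markers, Krt8, Krt18, Cdh1 and Emx2 were above the 40th percentile on 9 of 9 arrays, whereas Gata3 was above it on 8, Ros1 on 5 and Calb1, which was not kept, on 2, and the summed signal of the 11 analysed bud markers, 10 of them kept, was 92602 to 96856 in HRG, 83441 to 105632 in PTN and 104070 to 116054 in BSN. Of the 10, 4 (Ret, Gfra1, Lhx1 and Ros1) were lower in HRG than in BSN and 0 higher, beside 8.86% and 6.92% of all kept probe sets. Ros1 averaged 611.0 in HRG, below the average 40th percentile of the HRG arrays, 691.1. In HRG against PTN, 3 (Krt8, Krt18 and Cdh16) were higher and 3 (Ret, Gfra1 and Lhx1) lower, beside 14.1% and 11.7%. In PTN against BSN, 1 (Ret, by its brightest probe set) was higher and 3 (Krt8, Krt18 and Cdh16) were lower, beside 9.15% and 13.4%. Of the metanephric mesenchyme markers, Gdnf, Wt1 and Itga8 were analysed and were above the 40th percentile on 0 arrays. Of 9 stromal markers 5 were kept, and none passed the test in any comparison. Among endothelial markers 1 of 6, Kdr, was kept, and it was dim, above the 40th percentile on 4 of 9 arrays. Kdr averaged 329.1 in HRG, 840.2 in PTN and 742.1 in BSN and was called lower in HRG in both comparisons. Its HRG and BSN means fell short of the average 40th percentiles of their arrays (691.1 and 750.0). The part of Kdr in the results was not tested. None of the 4 blood markers was kept. In these bulk samples fewer cells of a type and less RNA per cell cannot be told apart.

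The promoters of Spry1, Spry2, Dusp5 and Dusp6 are shown because these 4 inhibitor genes were all lower in HRG than in BSN. Each sequence runs from 250 bases before to 50 bases after the annotated start of the gene in RefSeq's rat assembly GRCr8, read 5′ to 3′ on the gene's strand. Capitals mark the letters CCGGAA or AGGAAG, forms of the core bound by ETS factors, on either strand, so that TTCCGG and CTTCCT also stand in capitals, and they mark CArG boxes, in which CC and GG enclose only A and T and which serum response factor binds.

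Spry1, chr2:122485097-122485396, plus strand: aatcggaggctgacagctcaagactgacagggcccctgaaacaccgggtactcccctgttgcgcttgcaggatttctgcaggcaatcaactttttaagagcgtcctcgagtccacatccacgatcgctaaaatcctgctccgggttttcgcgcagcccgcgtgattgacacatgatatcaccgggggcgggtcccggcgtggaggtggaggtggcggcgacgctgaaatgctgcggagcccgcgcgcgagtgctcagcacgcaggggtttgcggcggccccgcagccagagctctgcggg
Spry2, chr15:89111877-89112176, minus strand: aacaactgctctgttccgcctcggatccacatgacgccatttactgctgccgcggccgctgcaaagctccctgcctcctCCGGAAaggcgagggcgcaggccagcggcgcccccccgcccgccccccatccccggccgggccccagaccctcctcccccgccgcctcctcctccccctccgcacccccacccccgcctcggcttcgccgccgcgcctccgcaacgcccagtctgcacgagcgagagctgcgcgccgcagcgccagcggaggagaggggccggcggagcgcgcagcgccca
Dusp5, chr1:262543524-262543823, plus strand: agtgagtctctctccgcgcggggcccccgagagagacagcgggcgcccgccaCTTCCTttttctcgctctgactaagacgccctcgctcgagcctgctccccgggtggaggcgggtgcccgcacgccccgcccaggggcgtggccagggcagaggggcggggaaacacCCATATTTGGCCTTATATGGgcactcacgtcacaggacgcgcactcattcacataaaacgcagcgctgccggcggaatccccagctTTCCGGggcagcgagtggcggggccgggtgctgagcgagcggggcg
Dusp6, chr7:35979354-35979653, plus strand: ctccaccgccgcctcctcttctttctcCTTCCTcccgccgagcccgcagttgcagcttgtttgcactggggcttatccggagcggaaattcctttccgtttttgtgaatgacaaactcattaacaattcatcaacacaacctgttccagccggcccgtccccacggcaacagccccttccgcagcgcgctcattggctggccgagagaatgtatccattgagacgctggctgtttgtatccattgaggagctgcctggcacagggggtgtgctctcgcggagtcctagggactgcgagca

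The Dusp5 window held CTTCCT at bases -198 to -193 and TTCCGG at bases 5 to 10, counted from the start. It also held a pair of CArG boxes side by side, at bases -82 to -73 and -72 to -63. The Spry2 window held CCGGAA at bases -171 to -166, and the Dusp6 window held CTTCCT at bases -223 to -218. In the Spry1 window neither ETS form nor a CArG box was found, and the AP-1 letters TGANTCA were in none of the 4 windows. Among 33469 rat promoters of the same length, CCGGAA was in 15.0%, AGGAAG in 34.5%, TGANTCA in 7.33% and a CArG box in 1.64%, both strands counted. The CArG form was added after the sequences had been seen, because the looser box first chosen, with any 6 letters inside, was in 71.5% of promoters. These matches describe letters in a window and say nothing of binding. The windows of Fgfr2, Fgfr3 and Fgfr4 held none of the marked forms. RefSeq's promoter table also holds Spry4, whose window carries TTCCGG at bases -81 to -76, and Spry2 has a further annotated start, whose window carries none of the marked forms.

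Of the 7 kept members 6 were lower in HRG than in BSN and 1 was higher. Fgfr1, Spry1, Spry2, Dusp5, Dusp6 and Mycn were lower and Fgfr2 was higher, each gene counted by its brightest kept probe set. Over all kept probe sets, 8.86% were lower and 6.92% were higher in HRG than in BSN at the same threshold, an adjusted p under 0.05 from limma. In HRG against PTN, 4 of the 7 (Spry1, Spry2, Dusp6 and Mycn) were lower, 0 were higher and 3 did not pass, where 11.7% of all kept probe sets were lower and 14.1% were higher. In PTN against BSN, 2 of the 7, Fgfr2 and Mycn, were higher, 0 were lower and 5 did not pass, where 9.15% of all kept probe sets were higher and 13.4% were lower. Counted by probe set, as these shares are, the 10 kept member probe sets had 7 lower and 1 higher in HRG against BSN. They had 4 lower and 0 higher in HRG against PTN, and 2 higher and 1 lower in PTN against BSN. The split of calls depends on the scaling: of all calls in HRG against BSN 43.9% were higher in HRG, against 50.8% after centring each array on its median, in HRG against PTN 54.7% were higher in HRG, against 43.2% after centring, and in PTN against BSN 40.6% were higher in PTN, against 60.3% after centring. The 7 member genes called in HRG against BSN were 4 with no signal filter, without an intensity trend in the variance, or without any one of BSN replicates 1 and 3 and HRG replicates 1 and 3. They were 5, 1 higher and 4 lower, after quantile normalization and after median centring, where Fgfr1 and Spry2 did not pass. The 2 member genes called in PTN against BSN were 1 after quantile normalization and without any one of BSN replicates 1 and 3 and PTN replicate 3, and 3 without HRG replicate 1 or PTN replicate 1. They were also 3 after median centring and with array weights. All signals below are the deposited values on a linear scale, and all fold changes come from log2 of the signal plus 16, which understates the change of dim genes. Levels are compared between media for one probe set, and signals of different probe sets are not read as relative amounts of RNA. The log2 gap between the bright Dusp6 probe sets is itself compared between media.

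**Figure D1:**
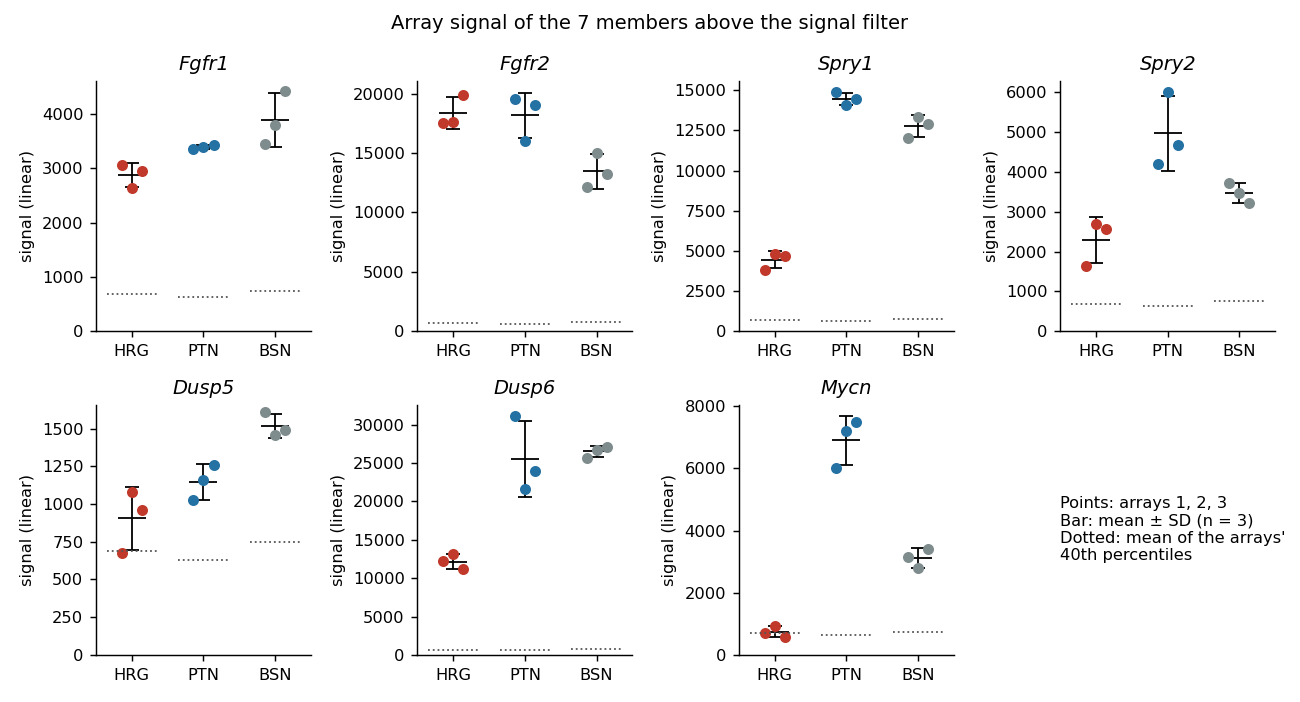
Deposited array signal (linear scale, vertical axes starting at 0) of the brightest kept probe set of each of 7 genes in HRG, PTN and BSN, with a point for each array and a bar for the mean ± SD (n = 3); the dotted line is the mean of the group's 40th percentiles. HRG arrays lie below both other media for Fgfr1, Spry1, Spry2, Dusp6 and Mycn, HRG and PTN overlap for Fgfr2 and Dusp5, and Mycn in HRG lies around the dotted line.

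The receptors that passed the filter had smaller folds in HRG against BSN, 1.34 for Fgfr1 and 1.36 for Fgfr2, than the inhibitors and Mycn, at 1.54 to 4.18. The difference between genes was not tested, and the 95% log2 intervals of Fgfr1 (-0.71 to -0.13) and Spry2 (-1.04 to -0.20) overlap. Fgfr1 had signals of 3064.7, 2636.4 and 2954.5 in HRG, 3365.0, 3397.5 and 3440.6 in PTN, and 3445.6, 3795.7 and 4421.4 in BSN. All HRG arrays were below all PTN arrays, and these below all BSN arrays. Against BSN, HRG was 1.34-fold lower (log2 difference -0.42, SE 0.13, limma adjusted p = 0.0493), a call held in 7 of 19 alternative settings, with adjusted p from 0.0192 to 0.196; it was lost with any one array left out other than BSN replicate 1 and PTN replicate 1. HRG against PTN differed by -0.24 on the log2 scale (95% interval -0.53 to 0.05, adjusted p = 0.216), and PTN against BSN by -0.18 (-0.47 to 0.11, adjusted p = 0.343). A second Fgfr1 probe set had signals of 70.4 to 408.9 and lay above the 40th percentile on 0 arrays.

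Fgfr2, the receptor with the main known role in the mouse bud, was the one member higher in HRG than in BSN. Its brightest probe set had signals of 17506.3, 17662.6 and 19901.9 in HRG, 19540.4, 16004.8 and 19023.6 in PTN, and 12109.4, 15047.0 and 13260.5 in BSN. HRG and PTN arrays overlapped, and all of them were above the BSN arrays. The fold over BSN was 1.36 in HRG (log2 difference 0.45, SE 0.13, adjusted p = 0.0332) and 1.35 in PTN (0.43, SE 0.13, adjusted p = 0.0309). The call against BSN held in 12 of 19 alternatives for HRG (adjusted p from 0.00706 to 0.14) and in 13 for PTN (0.00951 to 0.128); without BSN replicate 1 or 3 neither passed, and the HRG call was also lost without any one HRG array and the PTN call without PTN replicate 3. HRG against PTN differed by 0.02 on the log2 scale (95% interval -0.27 to 0.30, adjusted p = 0.945).

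The second Fgfr2 probe set was dimmer and its groups overlapped, with 1149.5, 1039.4 and 991.5 in HRG, 778.8, 1076.7 and 1241.9 in PTN, and 896.1, 1090.2 and 954.7 in BSN. Its log2 difference was 0.11 for HRG against BSN (95% interval -0.30 to 0.53, adjusted p = 0.76), 0.06 for HRG against PTN (-0.35 to 0.48, adjusted p = 0.85) and 0.05 for PTN against BSN (-0.36 to 0.47, adjusted p = 0.869). The intervals of the Fgfr2 probe sets overlap, so it was not shown that they differ in response. The remaining 3 of the 5 Fgfr2 probe sets were above the 40th percentile on 0 arrays, and their highest group mean was 553.1, in BSN. The files do not tell which Fgfr2 isoform a probe set reads.

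Fgfr3 and Fgfr4 stayed dim. Fgfr3 had signals of 63.0, 287.2 and 135.1 in HRG, 259.3, 250.8 and 183.1 in PTN, and 102.1, 131.1 and 167.9 in BSN, below the 40th percentile throughout. Fgfr4 had 304.6, 57.2 and 163.4 in HRG, 589.7, 468.5 and 636.8 in PTN, and 276.4, 448.5 and 442.2 in BSN, and passed the 40th percentile on 1 PTN array. PTN arrays were the highest for Fgfr4 and did not overlap with HRG or BSN arrays. No fold is given at such signals; in a fit with no signal filter, limma's adjusted p for Fgfr4 was 0.0216 for HRG against PTN, 0.122 for HRG against BSN and 0.485 for PTN against BSN.

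Spry1 and Spry2, the Sprouty inhibitors of receptor tyrosine kinase signalling, were both lowest in HRG. Spry1 had signals of 3840.4, 4813.7 and 4688.5 in HRG, 14858.8, 14087.4 and 14454.8 in PTN, and 12001.8, 13352.3 and 12917.4 in BSN. The highest HRG array was far below the lowest array of either other medium. HRG was 3.26-fold lower than PTN (log2 difference -1.70, SE 0.13, adjusted p = 1.58e-06) and 2.87-fold lower than BSN (-1.52, SE 0.13, adjusted p = 5.15e-06), and both calls held in 19 of 19 alternatives. PTN lay above BSN on every array, but the difference of 0.18 on the log2 scale (95% interval -0.09 to 0.46) did not pass (adjusted p = 0.319).

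Spry2 had signals of 1631.0, 2691.7 and 2570.2 in HRG, 4208.1, 6011.5 and 4677.7 in PTN, and 3729.6, 3466.9 and 3207.2 in BSN. The groups did not overlap, with HRG lowest and PTN highest. HRG was 2.18-fold lower than PTN (log2 difference -1.12, SE 0.20, adjusted p = 0.0011), which held in 19 of 19 alternatives. Against BSN it was 1.54-fold lower (-0.62, SE 0.20, adjusted p = 0.0478), which held in 9 of 19, with adjusted p from 0.0265 to 0.164. The call was lost after quantile normalization or median centring, and without any one BSN array, HRG replicate 1 or 3, or PTN replicate 3. PTN against BSN differed by 0.50 on the log2 scale (95% interval 0.08 to 0.93, adjusted p = 0.0825), and 4 of 19 alternatives, those without HRG replicate 1 or PTN replicate 1 among them, put it past the threshold.

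**Figure D2:**
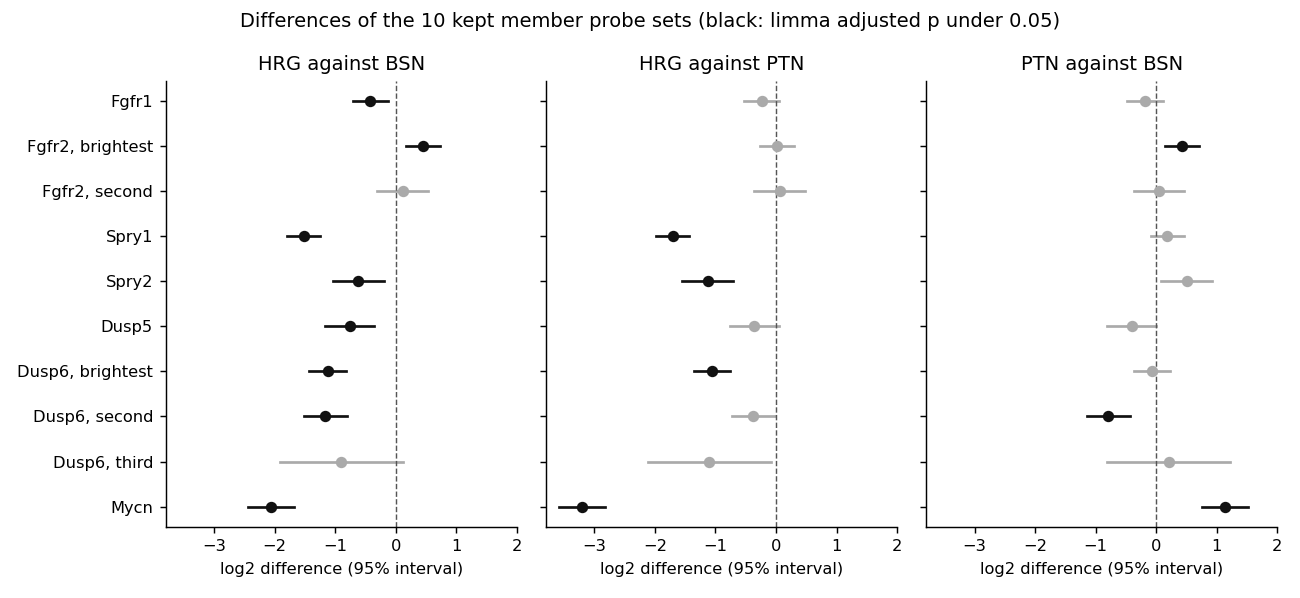
Log2 differences (horizontal axes, points) with 95% intervals (lines) of the 10 kept member probe sets for HRG against BSN, HRG against PTN and PTN against BSN, 3 arrays per group; black marks a limma adjusted p under 0.05 and grey the rest. The Sprouty, brightest Dusp6 and Mycn probe sets lie left of 0 in both HRG panels, the brightest Fgfr2 probe set lies right of 0 in both comparisons with BSN, and Mycn lies furthest from 0 in each panel.

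Dusp5, a nuclear phosphatase of ERK, passed in HRG against BSN alone. Its signals were of 673.7, 1081.7 and 958.2 in HRG, 1023.3, 1157.7 and 1257.0 in PTN, and 1609.0, 1455.4 and 1493.2 in BSN. HRG and PTN arrays overlapped, and both groups were below BSN on every array. HRG was 1.70-fold lower than BSN (log2 difference -0.76, SE 0.19, adjusted p = 0.0135), past the threshold in 17 of 18 alternatives and not without BSN replicate 1 (adjusted p = 0.0556). HRG against PTN differed by -0.36 on the log2 scale (95% interval -0.76 to 0.04, adjusted p = 0.18), and PTN against BSN by -0.41 (-0.81 to -0.00, adjusted p = 0.135).

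Dusp6, the cytoplasmic phosphatase of ERK, was lower in HRG than in BSN by both of its bright probe sets, which disagreed on PTN. The brightest probe set had signals of 12221.5, 13099.5 and 11187.3 in HRG, 31075.7, 21645.5 and 23926.3 in PTN, and 25713.8, 26717.4 and 27143.4 in BSN. HRG lay below both other media, which overlapped. It was 2.08-fold lower than PTN (log2 difference -1.05, SE 0.14, adjusted p = 0.000135) and 2.18-fold lower than BSN (-1.13, SE 0.14, adjusted p = 0.000136), and PTN against BSN differed by -0.07 (95% interval -0.37 to 0.23, adjusted p = 0.746).

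The second probe set had signals of 5920.1, 7442.3 and 6299.2 in HRG, 8634.7, 7063.4 and 9947.6 in PTN, and 12181.8, 15810.7 and 16289.8 in BSN. Here BSN stood above both other media, and HRG and PTN overlapped. HRG was 2.24-fold lower than BSN (log2 difference -1.16, SE 0.16, adjusted p = 0.000377), and PTN was 1.73-fold lower than BSN (-0.79, SE 0.16, adjusted p = 0.00505), whereas HRG against PTN, at -0.38 (95% interval -0.73 to -0.02), had an adjusted p of 0.113. The calls of both probe sets held in 19 of 19 alternatives each. Dusp6 is counted by its brightest probe set, so it enters as lower in HRG than in PTN and as not passed in PTN against BSN, where the second probe set would enter it as not passed and as lower in PTN.

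The gap between these probe sets, the log2 signal of the brightest minus that of the second, was 0.895 ± 0.129 in HRG, 1.58 ± 0.292 in PTN and 0.856 ± 0.191 in BSN (SD, n = 3). In exact permutation tests, two-sided, p was 0.1 for each comparison with PTN, the smallest that 3 against 3 arrays can give, and 0.6 for HRG against BSN. The ratio of the actin control's 3′ signal to its 5′ signal was lowest in PTN, at 25.2 ± 5.87 in HRG, 16.6 ± 1.40 in PTN and 33.2 ± 4.91 in BSN (SD, n = 3). The lowest HRG array, at 18.56, was close to the highest PTN array, at 18.1. The same exact test gave p = 0.1 for each comparison with PTN and 0.2 for HRG against BSN. The ratio of the GAPDH control was instead lowest in HRG by its mean, at 2.92 ± 0.802 in HRG, 5.14 ± 1.98 in PTN and 4.57 ± 1.11 in BSN (SD, n = 3). Its exact permutation p was 0.3 in HRG against PTN, 0.8 in PTN against BSN and 0.1 in HRG against BSN. The part of these ratios in the gap was not tested. The third Dusp6 probe set was dim, with 662.9, 393.9 and 149.3 in HRG, 1170.5, 602.1 and 602.9 in PTN, and 1001.3, 479.8 and 572.5 in BSN, and its groups overlapped. None of its comparisons passed (adjusted p = 0.238 in HRG against BSN, 0.105 in HRG against PTN and 0.785 in PTN against BSN), and with the replicate number as a block HRG against PTN had 0.0249.

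**Figure D3:**
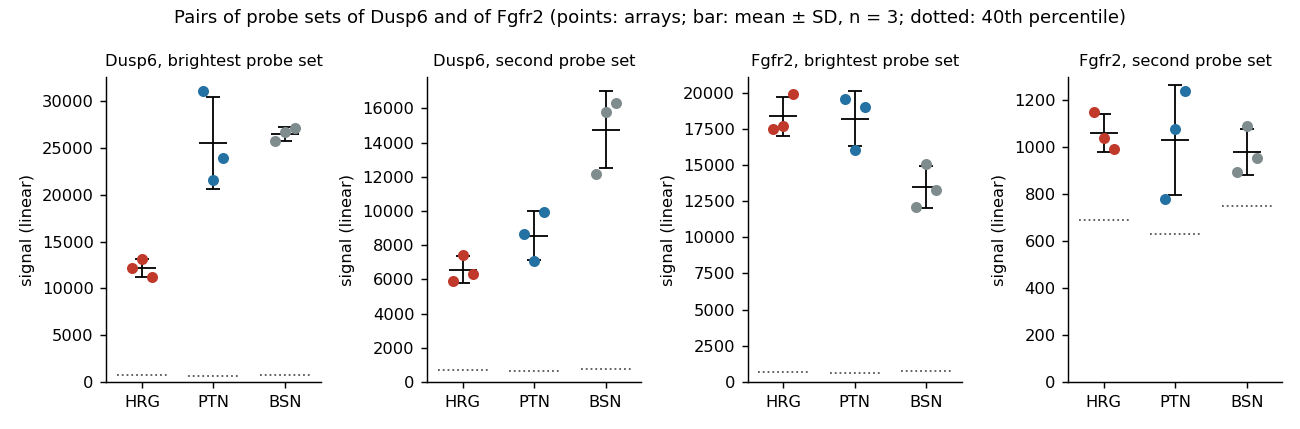
Deposited signal (linear scale, vertical axes starting at 0) in HRG, PTN and BSN of the paired bright probe sets of Dusp6 and the kept probe sets of Fgfr2, with a point for each array, a bar for the mean ± SD (n = 3) and a dotted line at the mean of the group's 40th percentiles. PTN overlaps with BSN for the brightest Dusp6 probe set and with HRG for the second, and all groups overlap for the second Fgfr2 probe set.

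Mycn, a transcription factor gene of growing embryonic tissue, had the largest differences among the kept members in all 3 comparisons. It had signals of 709.7, 942.7 and 586.5 in HRG, 6001.9, 7216.2 and 7486.9 in PTN, and 3145.8, 2791.7 and 3423.0 in BSN. The 3 media did not overlap, and PTN was highest. HRG was 9.20-fold lower than PTN (log2 difference -3.20, SE 0.18, adjusted p = 1.28e-07) and 4.18-fold lower than BSN (-2.06, SE 0.18, adjusted p = 6.18e-06), and PTN was 2.20-fold higher than BSN (1.14, SE 0.18, adjusted p = 0.00087). All 3 calls held in 19 of 19 alternatives. In HRG the signal passed the 40th percentile on 1 of 3 arrays, so the size of the folds against HRG rests on a dim signal.

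The order of the media differed from member to member. HRG was lowest for Fgfr1, Spry1, Spry2, Dusp5, Dusp6 and Mycn by their mean signals. The highest mean was in PTN for Spry1, Spry2 and Mycn and in BSN for Fgfr1, Dusp5 and Dusp6, while Fgfr2 averaged 18357 ± 1340 in HRG, 18190 ± 1910 in PTN and 13472 ± 1480 in BSN (SD, n = 3). PTN and BSN, neighbours at the top of most of these orders, passed the test for a difference at Fgfr2 and Mycn among the brightest probe sets. Over all kept probe sets the median log2 difference was -0.04 (HRG against BSN), 0.08 (HRG against PTN) and -0.11 (PTN against BSN), and centring each array on its median moved the last to 0.01. After that centring the PTN against BSN difference of the brightest Dusp6 probe set, which had not passed, changed sign to 0.06, and so did HRG against PTN of the brightest Fgfr2 probe set, to -0.06.

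Other genes of the pathway came from 4 lists. Of 29 FGF ligands and receptor partners 26 were analysed and 6 were kept. In HRG against BSN, where 8.86% of all kept probe sets were lower and 6.92% higher, 2 were lower and 4 did not pass. They were Fgfrl1, an FGF receptor without a kinase domain, which averaged 2367 ± 605 in HRG and 3632 ± 415 in BSN (SD, n = 3; 1.56-fold lower, adjusted p = 0.04, held in 10 of 19 alternatives), and Fgf14, an intracellular FGF homologue, which averaged 665.3 in HRG, below the group's mean 40th percentile of 691.1, and 1177 in BSN (adjusted p = 0.0197). A second Fgf14 probe set averaged 732.8 in HRG and 674.6 in BSN and did not pass (adjusted p = 0.816). In HRG against PTN, where 14.1% of all kept probe sets were higher and 11.7% lower, 1 was higher and 5 did not pass. Fgf13, another intracellular homologue, was the higher one and averaged 16096 ± 954 in HRG and 9326 ± 3717 in PTN (SD, n = 3). Its fold was 1.84 (adjusted p = 0.0234, held in 14 of 19 alternatives). None of the 6 passed in PTN against BSN, where 9.15% of all kept probe sets were higher and 13.4% lower. The median log2 difference of the 6 was -0.06, 0.13 and -0.17 in HRG against BSN, HRG against PTN and PTN against BSN. The secreted ligands Fgf7, Fgf8 and Fgf10 were above the 40th percentile on 0 arrays, and Fgf9, also secreted, was kept, with means of 1126 in HRG, 824.0 in PTN and 1285 in BSN. Fgf16 was kept as well, above the 40th percentile on 7 arrays, with means of 876.7 in HRG, 835.5 in PTN and 844.1 in BSN.

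The receptor adaptors and kinases of the ERK cascade had 0 to 2 calls in each comparison. Of 32 genes 18 were analysed and 15 were kept, and 0 of the 15 passed in HRG against BSN, where 6.92% of all kept probe sets were higher and 8.86% lower, with a median log2 difference of -0.01. Mknk1, an ERK-activated kinase of translation factors, averaged 1340 ± 67.5 in HRG, 878.2 ± 38.8 in PTN and 1234 ± 109 in BSN (SD, n = 3). Mknk1 was 1.52-fold higher in HRG than in PTN (adjusted p = 0.00989) and 1.40-fold lower in PTN than in BSN (adjusted p = 0.0348, held in 8 of 18 alternatives). The adaptor gene Crk was 1.32-fold higher in PTN than in BSN (adjusted p = 0.0297, held in 12 of 19 alternatives), and the other 14 and 13 kept members did not pass in HRG against PTN and in PTN against BSN. The list's median was 0.01 in HRG against PTN, where 14.1% of all kept probe sets were higher and 11.7% lower, and -0.11 in PTN against BSN, where 9.15% were higher and 13.4% lower.

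Among 26 other negative regulators 18 were analysed and 15 kept. HRG against BSN had 1 higher, 4 lower and 10 that did not pass (median log2 difference -0.16), beside 6.92% higher and 8.86% lower over all kept probe sets. HRG against PTN had 3 higher, 3 lower and 9 that did not pass (median 0.08), beside 14.1% and 11.7%, and PTN against BSN had 1 higher, 3 lower and 11 that did not pass (median -0.16), beside 9.15% and 13.4%. Ptprr, a tyrosine phosphatase that dephosphorylates ERK, went opposite to Dusp6 in both HRG comparisons. Its signals were 16419.9, 19885.3 and 16555.2 in HRG, 5999.3, 8514.2 and 7131.7 in PTN, and 2733.8, 2558.8 and 2810.4 in BSN, with no overlap between media. It was 6.47-fold higher in HRG than in BSN (adjusted p = 1.35e-07), 2.45-fold higher in HRG than in PTN (adjusted p = 4.65e-05) and 2.64-fold higher in PTN than in BSN (adjusted p = 7.8e-05).

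Dusp2, a nuclear phosphatase of ERK, had signals of 1913.9, 2476.9 and 2036.0 in HRG, 652.2, 510.0 and 507.1 in PTN, and 5832.7, 5964.4 and 5696.6 in BSN. PTN arrays were below the 40th percentile, so no fold against PTN is given. HRG was 2.72-fold lower than BSN (adjusted p = 3.46e-05), and PTN differed from both others (adjusted p = 2.42e-06 for HRG against PTN, higher in HRG, and 1.31e-07 for PTN against BSN, lower in PTN). Rasa1, a GTPase-activating protein for Ras, averaged 2241 ± 63.0 in HRG, 3096 ± 212 in PTN and 4557 ± 331 in BSN (SD, n = 3). It was 2.02-fold lower in HRG than in BSN (adjusted p = 0.000128) and 1.47-fold lower in PTN than in BSN (adjusted p = 0.00762). Rgs2, a regulator of G protein signalling, averaged 1914 ± 168 in HRG and 3652 ± 715 in PTN (SD, n = 3) and was 1.88-fold lower in HRG (adjusted p = 0.00127).

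Further genes of this list, named after their values were seen, complete these counts. Dusp14 and Rgs2 were also lower in HRG than in BSN. Dusp14 and Rasa1 were lower and Cblb, a ubiquitin ligase for receptor tyrosine kinases, higher in HRG than in PTN. Ptpn1, a tyrosine phosphatase, was lower in PTN than in BSN (limma adjusted p = 0.0484, and 0.0508 with the replicate number as a block). Its PTN mean of 609.7 was below the group's mean 40th percentile of 632.2. Of the 28 ETS factors and ERK-induced transcription factors 24 were analysed and 17 kept. Etv1, Etv4 and Etv5, ETS genes known as FGF targets, were not analysed here. The list had 2 higher, 6 lower and 9 that did not pass in HRG against BSN, with a median log2 difference of -0.14, beside 6.92% higher and 8.86% lower over all kept probe sets. It had 4 higher, 2 lower and 11 that did not pass in HRG against PTN, with a median of 0.10, beside 14.1% and 11.7%. It had 0 higher, 4 lower and 13 that did not pass in PTN against BSN, with a median of -0.36, beside 9.15% and 13.4%.

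**Figure D4:**
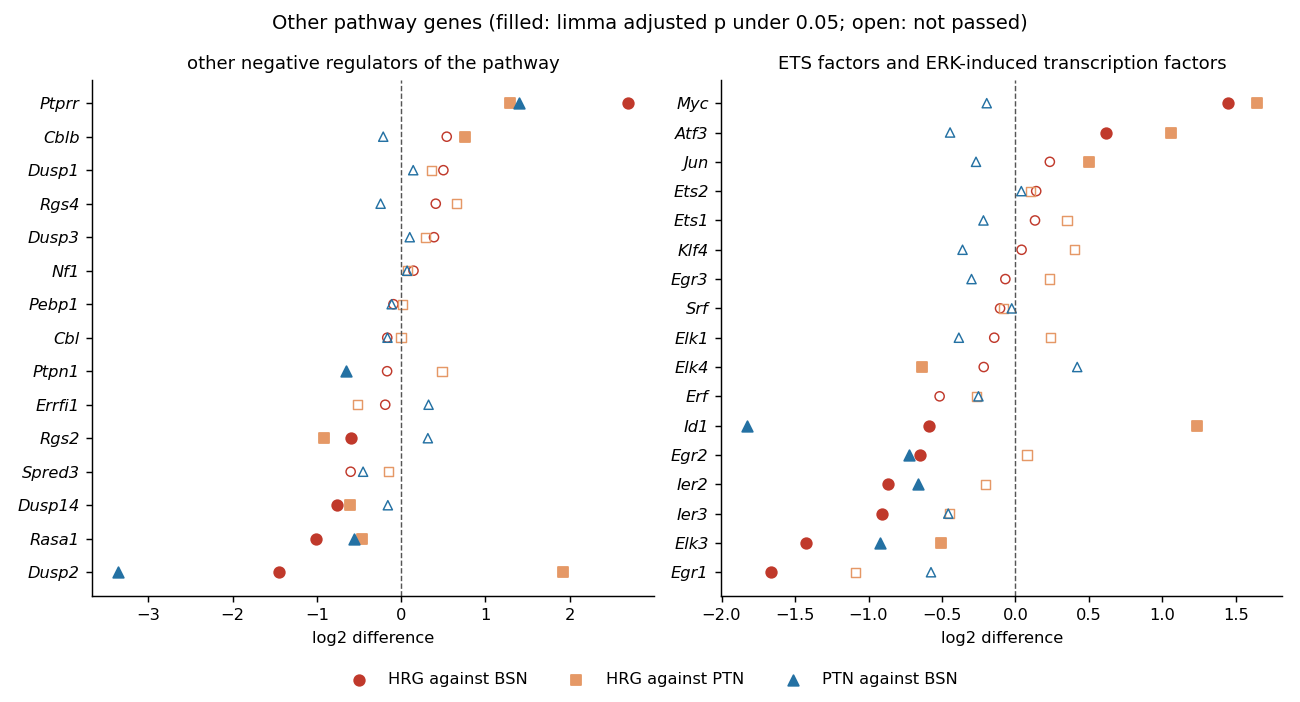
Log2 difference (horizontal axes) of each kept gene in the lists of other negative regulators and of ETS and ERK-induced transcription factors, for HRG against BSN (circles), HRG against PTN (squares) and PTN against BSN (triangles), 3 arrays per group; filled symbols passed the limma threshold. Ptprr lies right of 0 in all 3 comparisons and Rasa1 and Elk3 left of 0, and the Dusp2 values that involve PTN depend on the pseudocount because its PTN signal is dim.

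Elk3, an ETS factor of the ternary complex family that acts with serum response factor, had signals of 3755.3, 3285.7 and 3184.4 in HRG, 3845.1, 5469.5 and 5359.1 in PTN, and 8691.9, 9259.5 and 9586.7 in BSN by its brightest probe set. The media did not overlap. HRG was 2.69-fold lower than BSN (adjusted p = 4.42e-05) and 1.42-fold lower than PTN (adjusted p = 0.0285), and PTN was 1.90-fold lower than BSN (adjusted p = 0.00138), whereas a second Elk3 probe set did not pass in PTN against BSN (adjusted p = 0.669). The immediate early genes Ier2 and Ier3 were 1.83-fold (adjusted p = 0.0023) and 1.87-fold (adjusted p = 0.00147) lower in HRG than in BSN, and Ier2 was 1.58-fold lower in PTN than in BSN (adjusted p = 0.0105).

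Myc, a proto-oncogene of the same family as Mycn, ran opposite to it in HRG. Its signals were 1903.9, 2456.2 and 2515.0 in HRG, 1010.9, 519.4 and 701.7 in PTN, and 1242.1, 625.5 and 718.4 in BSN. HRG arrays were above all others, and PTN and BSN overlapped (adjusted p = 0.639). HRG was 3.12-fold higher than PTN (adjusted p = 0.000858) and 2.73-fold higher than BSN (adjusted p = 0.00305), with PTN and BSN arrays near the 40th percentile, above it on 2 of 3 and on 1 of 3 arrays. Atf3, a stress-induced transcription factor gene, was 2.08-fold higher in HRG than in PTN (adjusted p = 0.00152).

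Id1, an inhibitor of helix-loop-helix factors, had its minimum in PTN. Its signals were 3255.3, 3276.9 and 3119.0 in HRG, 1668.2, 1050.7 and 1420.8 in PTN, and 4856.0, 4547.1 and 5180.8 in BSN. PTN was 3.55-fold lower than BSN (adjusted p = 1.94e-05), and HRG was 2.36-fold higher than PTN (adjusted p = 0.000129). Egr1, Egr2 and Id1 were also lower and Atf3 higher in HRG than in BSN, Elk4 lower and Jun higher in HRG than in PTN, and Egr2 lower in PTN than in BSN, all named after their values were seen. For Atf3 in HRG against BSN limma's adjusted p was 0.0475, and 0.0543 with the replicate number as a block. Egr1, an immediate early gene of ERK, spread widely between arrays, with 2309.8, 6371.0 and 5968.4 in HRG, 4851.0, 11159.3 and 15779.3 in PTN, and 8158.6, 17453.8 and 19865.3 in BSN, and replicate 1 was the lowest array in each medium. HRG was below PTN in each pair of arrays with the same number, and the comparison had an adjusted p of 0.102 in the fit without the replicate number and 0.000216 with it as a block. Errfi1, a feedback inhibitor of the EGF receptor from the list of negative regulators, named after its values were seen, also passed as lower in HRG than in PTN under the block (adjusted p = 0.0497, against 0.083 without it).

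**Figure D5:**
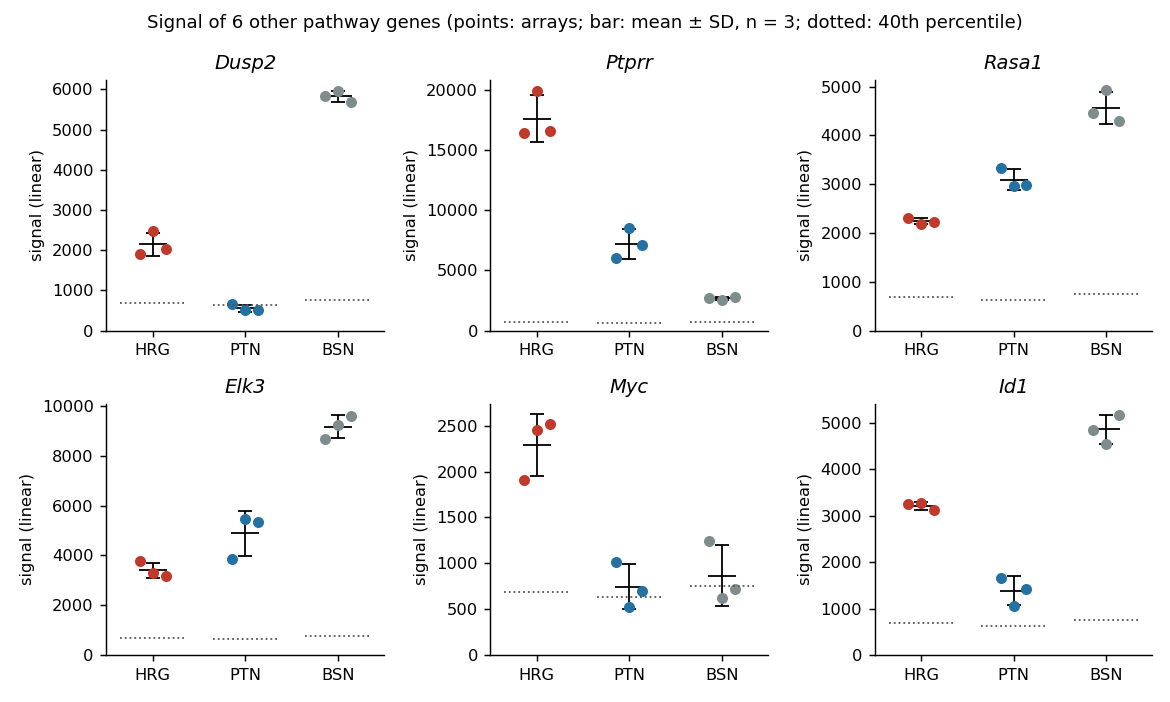
Deposited signal (linear scale, vertical axes starting at 0) of Dusp2, Ptprr, Rasa1, Elk3, Myc and Id1 in HRG, PTN and BSN, with a point for each array, a bar for the mean ± SD (n = 3) and a dotted line at the mean of the group's 40th percentiles. HRG is highest for Ptprr and Myc, and PTN is lowest for Dusp2 and Id1.

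The genes whose signals over the 9 arrays were most like those of Spry1 and Mycn were found by the root mean square difference of centred log2 signals, among 4289 bright probe sets. Ccnd1, encoding cyclin D1, was nearest to Spry1 (0.17, where the root mean square deviation of Spry1 from its own mean was 0.77), followed by Gfra1 (0.23), Sulf2 (0.25), Spc24 (0.26) and Dscc1 (0.26). Ccnd1 averaged 2661 ± 130 in HRG, 7791 ± 802 in PTN and 6383 ± 519 in BSN (SD, n = 3), and Gfra1, the co-receptor of Ret for GDNF, 2113 ± 340 in HRG, 5771 ± 584 in PTN and 5916 ± 513 in BSN. Nearest to Mycn, whose own deviation was 1.34, were Col9a1 (0.22), Cxcr4 (0.38), Gja1 (0.40), Marchf11 (0.41) and Top2a (0.45). Col9a1, a collagen gene, averaged 1812 ± 276 in HRG, 21791 ± 968 in PTN and 8894 ± 332 in BSN (SD, n = 3). All these points share the same 9 arrays and 3 media, and a likeness over them is a description.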

How the data were processed

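The deposited values are array signal intensities on a linear scale for 15923 probe sets of the Affymetrix rat RAE230A array, made with GCOS per the submitters' processing notes, with no version or setting given in the sources used here. The 57 controls were set aside. Symbols came from the platform's probe table, where 12783 of the other probe sets had 1 symbol, 312 several and 2771 none. Each signal was taken as log2(signal + 16) and tested with limma 3.58.1 in R 4.3.3 (lmFit, contrasts.fit, eBayes with an intensity trend), all 9 arrays in one fit, with Benjamini-Hochberg adjustment over the 10106 kept probe sets and a threshold of 0.05. The fit was also run on simulated data, with independent normal noise and changes planted in HRG alone. That setting holds no scaling shift or pairing, so it says nothing of their effect. The fit of the deposited data had 6 residual degrees of freedom, 12.7 after moderation, and the number of arrays limits the precision. In the report no fold is given where the mean signal of a group fell short of the average 40th percentile of its arrays (691.1 in HRG, 632.2 in PTN and 750.0 in BSN). Single values were compared with exact permutation tests.

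The members and gene lists were chosen with earlier results of these data known. Every member probe set is named, with up to 3 called genes per list and comparison by limma's moderated statistic and the 5 genes most like Spry1 and Mycn. Arrays with the same replicate number were set against each other to see whether they pair: the correlation of their deviations from the group means was 0.118 to 0.332 for HRG with PTN, -0.0551 to 0.13 for HRG with BSN and -0.097 to -0.0112 for PTN with BSN. All 3 HRG and PTN pairs were over 0.1. Pairs with different numbers were not computed, so these values have no reference. Whether the arrays pair, which the labels do not state, is therefore not settled. The unblocked model gives the reported values, and the blocked value of HRG against PTN stands beside each named gene whose call it changes. Alternatives changed the scaling (quantile normalization, median centring), the pseudocount (1 and 64), the filter (none, or the 60th percentile) or the model (without the trend, with array weights, on the compared groups only, or blocked by replicate number), left out single arrays, or averaged the probe sets of a gene before counting. Python 3.11.15 with matplotlib 3.10.9 drew the figures.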

Additional observations from a re-analysis of the deposited data

How the results depend on the processing

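In HRG against BSN, 7 member genes passed, against 4 with no filter, 4 with no intensity trend, 6 with the replicate block, where Fgfr1 did not pass, and 4 to 7 with single arrays left out: 4 without BSN replicate 1 or 3 and without HRG replicate 1 or 3. Quantile normalization and median centring each gave 5, without Fgfr1 and Spry2. In HRG against PTN, 4 member genes passed in every setting run. In PTN against BSN, 2 passed, against 1 with quantile normalization, no intensity trend, only the groups compared or the mean of probe sets. Median centring and array weights each gave 3, and single arrays left out gave 1 to 3. Of all kept probe sets, 1594 passed in HRG against BSN, against 2439 with array weights and 1053 to 2225 with single arrays left out, and 2276 in PTN against BSN, against 3480 with array weights and 1358 to 3222. The differences that changed sign had not passed. They were HRG against PTN for the brightest Fgfr2 probe set (log2 difference -0.061 with median centring, -0.073 to 0.071 with single arrays left out) and the second (-0.031 with quantile normalization, -0.016 with median centring, -0.084 with array weights, -0.126 to 0.205 with single arrays left out), and PTN against BSN for the second Fgfr2 probe set (-0.092 to 0.239 with single arrays left out), the brightest Dusp6 probe set (0.056 with median centring, -0.22 to 0.04 with single arrays left out) and the third, whose BSN signal is dim, so that its value depends on the pseudocount (-0.119 with array weights, -0.109 to 0.509 with single arrays left out). Over 561 alternative values of member probe sets 36 lost a call, 6 gained one and 14 changed sign. Over 567 of other genes 34 lost a call: those named by limma's moderated statistic, and Ret, Gfra1 and Ccnd1 in the HRG comparisons. Calls named after their values were seen, and Ret in PTN against BSN, were not counted. The cause was not tested. The replicate block changed no call of a member probe set other than Fgfr1 in HRG against BSN (log2 difference -0.423, adjusted p = 0.0602) and the third Dusp6 probe set in HRG against PTN (adjusted p = 0.0249). Among the pathway lists it changed the call of Fgf13, Spred3, Erf and Atf3 in HRG against BSN, Errfi1 and Egr1 in HRG against PTN, and Ptpn1 and Egr1 in PTN against BSN, with adjusted p from 0.000216 to 0.0543 under the block.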

Other observations

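Probe sets of Elk3, of Ccnd1 and of Ret differed in their calls in PTN against BSN, as those of Dusp6 did, though not always with the brightest on the same side. The second Elk3 probe set averaged 2986 in HRG, 5762 in PTN and 5440 in BSN and did not pass in PTN against BSN (limma adjusted p = 0.669), where the brightest was 1.90-fold lower (adjusted p = 0.00138). A dimmer Ccnd1 probe set averaged 1278 in HRG, 2013 in PTN and 3377 in BSN and was 1.70-fold lower in PTN than in BSN (adjusted p = 0.00841), where the brightest did not pass (adjusted p = 0.136) and neither did another (adjusted p = 0.926). The Elk3 and Ccnd1 probe sets were all lower in HRG than in BSN and in HRG than in PTN. The difference between probe sets was not tested for Elk3, Ccnd1 or Ret.

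Ret, the GDNF receptor, averaged 917.9 ± 171 in HRG, 18756 ± 850 in PTN and 13512 ± 1883 in BSN (SD, n = 3), the same order of mean signals as Spry1, Spry2 and Mycn, and its PTN arrays were all above its BSN arrays (1.40-fold, limma adjusted p = 0.0424). A second Ret probe set averaged 2269 in PTN and 2217 in BSN and did not pass (adjusted p = 0.999). GDNF was at the same dose in all media.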
